A study of Mus musculus with 12 samples.

Results

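The 50 genes described here are cell cycle genes named in a list, grouped by the phase in which their products act. Of them, 23 belong to S phase, 25 to G2 and mitosis (G2/M), and Stmn1 and Tuba1b were listed without being placed in either phase. All 50 were found by symbol among the 31053 genes of the mRNA matrices. They were measured in T cells from the pancreatic islets of 12-week-old female NOD mice labelled pre-diabetic. NOD is an inbred strain in which autoimmune T cells destroy the insulin-producing beta cells of the islets. Live T cells carrying a beta-chain T cell receptor were sorted into 4 biological replicate libraries, which hold unique molecular identifier (UMI) counts of mRNA, counts of antibodies to CD4, CD8b, CD62L and CD11a, and receptor sequences for each cell barcode. All libraries shared strain, sex, age and tissue, so every comparison is between populations of cells within the same 4 libraries. Whether a library came from 1 mouse or from a pool is not stated, and the p-values measure only the spread between these libraries.

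A T cell that has not met its antigen rests outside the cell cycle. After activation, E2F transcription factors switch on the genes that load the MCM helicase onto replication origins, make deoxynucleotides and copy DNA. Later, the cyclin-dependent kinase Cdk1 with its cyclins, the Aurora and Polo-like kinases, the spindle motors and the ubiquitin machinery of the anaphase-promoting complex drive mitosis, and many of their promoters carry a CCAAT box and a cell cycle genes homology region (CHR). Division of antigen-specific T cells is how a clone expands, and a clone can be followed because its cells share 1 rearranged receptor.

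The 2 phase groups differ in the letters of their promoters. RefSeq promoter sequences (mouse build GRCm38.p6) were found for 42 of the 50 genes, and the 200 bases upstream of each start were searched on both strands. The CCAAT letters (CCAAT, or ATTGG on the other strand) were present in 18 of 21 G2/M genes (85.7%), 11 of 20 S genes (55%) and 32.7% of 27025 mouse genes in the same table. The CHR letters (TTTGAA or its complement TTCAAA, or TTTAAA, which reads the same on both strands) were present in 11 of 21 G2/M genes (52.4%), 4 of 20 S genes (20%) and 22.5% of all genes. Both motifs together were in 11 of 21 G2/M genes and in 6.84% of all genes. E2F letters (TTTCCCGC, TTTGGCGC, TTTGCCGC or TTTCGCGC, and their complements) were in 5 of 20 S genes (25%), 1 of 21 G2/M genes (4.76%) and 1.83% of all genes. A match describes letters only and is not evidence of binding.

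The promoters below are those, among genes with a single entry, that held the letters of their phase and had the largest CD62L-low over CD62L-high fold change in CD8 cells. Capitals mark E2F letters in the first 3, Cdc6 (chr11:98907951-98908150, plus strand), Mcm5 (chr8:75109309-75109508, plus strand) and Mcm6 (chr1:128359706-128359905, minus strand). The E2F matches of Mcm5, and the first pair of Mcm6, overlap each other.
Cdc6: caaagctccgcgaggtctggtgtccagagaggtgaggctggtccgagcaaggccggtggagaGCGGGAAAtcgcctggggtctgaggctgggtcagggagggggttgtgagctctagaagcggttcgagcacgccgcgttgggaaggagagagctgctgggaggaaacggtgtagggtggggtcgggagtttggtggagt
Mcm5: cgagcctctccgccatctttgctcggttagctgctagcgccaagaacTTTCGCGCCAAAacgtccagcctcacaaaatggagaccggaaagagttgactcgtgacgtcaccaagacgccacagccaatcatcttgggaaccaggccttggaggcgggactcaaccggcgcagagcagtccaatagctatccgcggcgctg
Mcm6: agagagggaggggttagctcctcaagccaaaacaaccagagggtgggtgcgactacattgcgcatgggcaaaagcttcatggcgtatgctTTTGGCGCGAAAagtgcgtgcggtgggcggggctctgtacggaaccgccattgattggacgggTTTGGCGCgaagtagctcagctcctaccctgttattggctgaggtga
Capitals mark CCAAT and CHR letters in Ccnb2 (chr9:70421555-70421754, minus strand), Cdk1 (chr10:69352913-69353112, minus strand) and Ube2c (chr2:164769729-164769928, plus strand).
Ccnb2: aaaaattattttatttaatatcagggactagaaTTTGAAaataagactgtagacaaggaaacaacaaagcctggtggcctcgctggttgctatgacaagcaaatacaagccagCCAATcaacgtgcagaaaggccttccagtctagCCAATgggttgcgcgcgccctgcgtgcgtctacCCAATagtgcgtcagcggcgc
Cdk1: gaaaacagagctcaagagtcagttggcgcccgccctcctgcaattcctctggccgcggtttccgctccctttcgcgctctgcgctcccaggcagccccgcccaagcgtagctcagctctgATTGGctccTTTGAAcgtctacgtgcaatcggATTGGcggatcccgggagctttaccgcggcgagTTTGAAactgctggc
Ube2c: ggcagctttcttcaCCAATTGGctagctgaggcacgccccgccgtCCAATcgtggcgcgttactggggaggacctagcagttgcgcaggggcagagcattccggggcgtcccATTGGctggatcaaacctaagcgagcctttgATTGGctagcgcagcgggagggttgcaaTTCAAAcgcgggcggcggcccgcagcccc
Cdc6 loads the MCM helicase, of which Mcm5 and Mcm6 are subunits. Ccnb2 is a mitotic cyclin, Cdk1 the mitotic kinase, and Ube2c the ubiquitin-conjugating enzyme of the anaphase-promoting complex.

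CD8 cells were called from an antibody count for CD4 below 20 and at least 2 UMIs of Cd8a and Cd8b1 together. Conventional CD4 cells had a CD4 count of at least 40 and no UMI of Cd8a, Cd8b1 or Foxp3, and regulatory T cells (Treg) differed from them by at least 1 Foxp3 UMI. CD62L, the lymph node homing receptor that activated T cells shed, split each lineage at antibody counts of at most 3 (CD62L-low) and at least 10 (CD62L-high). The CD62L-low and CD62L-high groups held 2433 and 1299 CD8, 5489 and 4047 conventional CD4, and 769 and 254 Treg cells over the 4 libraries. Libraries held 4136 to 8718 barcodes, of which 3327 to 7302 were kept, with a median of 2581 to 4179 UMIs per kept cell. Library pairs shared 36 to 102 barcode sequences. The 5 T cell markers together stood at 3230 to 4850 CPM (UMI counts scaled to a common library total) over the 6 populations and 4 libraries. A CD11a antibody count below 20 was found in 37.3% and 30.4% of kept cells of replicates 3 and 4, but in 4.2% and 5.4% of those of replicates 1 and 2. The lineage gates took 4417 of 4943, 2876 of 3327, 4394 of 7302 and 4688 of 7037 kept cells of replicates 1 to 4. The CD8 and CD62L-low gates ask for low antibody counts, so barcodes with weak antibody capture can fall in them. How many did was not counted.

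Within single cells the 50 genes were found together, with an inner order. Cells were classed by whether they held at least 3 UMIs over the S genes and at least 3 over the G2/M genes, each time leaving out the gene described. Each of the 50 genes had its highest mean level in CD62L-low cells that held both. Mki67, the proliferation marker protein, stood at 21.2 CPM in cells with neither, 29.8 CPM in cells with S UMIs only and 929 CPM in cells with both. Mcm6, the helicase subunit, was at 103, 186 and 464 CPM in the same classes, and Cdt1, the licensing factor that brings the helicase to origins, at 22.2, 28 and 73.4 CPM. Cells holding at least 3 G2/M UMIs numbered 1382 of 8691 CD62L-low cells and held 42% of all UMIs of CD62L-low cells. With the gene itself left out of the sum, such cells held 99.3% of the UMIs of Bub1, a spindle checkpoint kinase, 96.1% of those of Mki67, 72% of those of Mcm6 and 68.1% of those of Cdt1. The S class was the less sharp one, since 1565 CD62L-low cells held 2 S UMIs and 874 held exactly 3, against 500 and 244 for G2/M. These classes are ranges of a count and not cell types, and cells with both sums had a median of 4.36 (CD8), 4.58 (conventional CD4) and 4.83 (Treg) times their library's median UMI count.

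Among cells that held at least 3 UMIs of both sums, the G2/M share of these UMIs was used to order cells from S-leaning (at most 33.3%, 427 cells) to G2/M-leaning (at least 66.7%, 246 cells), with 513 cells between. Median depth in these bins was 14691, 16104 and 12398 UMIs in that order. All 25 G2/M genes were higher in G2/M-leaning than in S-leaning cells in 4 of 4 libraries. Ube2c spanned the widest range of them, from 56.5, 44.6, 60 and 65.7 CPM in S-leaning cells of replicates 1 to 4 to 1460, 1650, 1480 and 1700 CPM in G2/M-leaning cells. Its mean log2 difference was 4.78 ± 0.27 (SD, n = 4), next to 4.47 ± 0.44 for Cenpf, a centromere protein, and 4.11 ± 0.31 for Hmmr, a spindle assembly factor. The least phased G2/M gene was Cks1b, a Cdk-binding subunit, at 1.22 ± 0.29, below Top2a, the topoisomerase that untangles DNA, at 1.67 ± 0.17.

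The S genes did not share 1 peak. For 18 of the 23, levels were lower in G2/M-leaning cells in 4 of 4 libraries. Ung, which removes uracil from DNA, had a mean of 119 ± 19.9 CPM in S-leaning and 2.10 ± 2.48 CPM in G2/M-leaning cells (SD, n = 4), and E2f1, the activating E2F factor, 73.4 ± 17.5 and 7.24 ± 3.69 CPM. Cdc6 differed by -3.08 ± 0.35 on the log2 scale and Ccne1, the G1/S cyclin E1, by -2.31 ± 0.40. A nucleotide and replication group peaked between the ends. Rrm2, the regulated subunit of ribonucleotide reductase, averaged 323, 486 and 299 CPM in S-leaning, middle and G2/M-leaning cells. Tyms and Tk1, which make thymidylate, and Rrm1 were also highest in the middle bin, with end-to-end differences of -0.21 ± 0.27, -0.07 ± 0.25 and 0.18 ± 0.25. Pclaf, the PCNA-associated factor, was the 1 S gene higher in G2/M-leaning cells in 4 of 4 libraries, by 0.70 ± 0.27, and also peaked in the middle bin, at 730 CPM. Stmn1, a microtubule destabiliser, and Tuba1b, an alpha-tubulin, were higher in G2/M-leaning cells in 4 of 4 libraries, by 0.50 ± 0.33 and 0.79 ± 0.08. The bins use the other members, so these levels describe the order and carry no test. S-leaning cells made up 33.7% ± 5.1 of such CD8 cells, 40.5% ± 4.29 of conventional CD4 and 32.2% ± 7.9 of Treg (SD, n = 4).

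**Figure D1:**
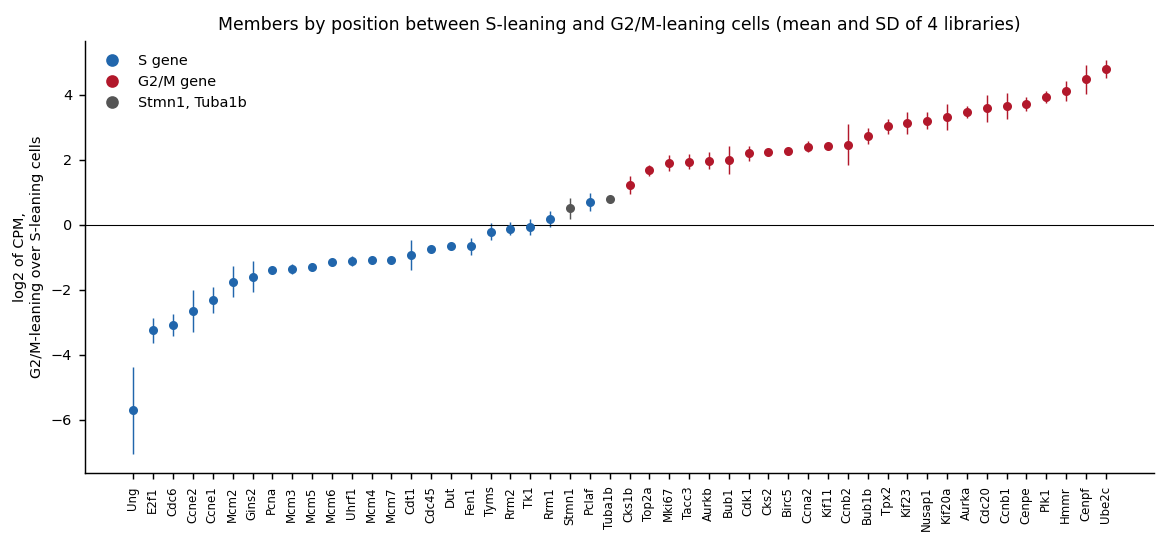
Mean log2 difference in CPM (pseudocount 1 CPM) between G2/M-leaning and S-leaning CD62L-low cells for each of the 50 genes, coloured by phase, with the SD over 4 libraries. All 25 G2/M genes lie above 0, from 1.22 for Cks1b to 4.78 for Ube2c, and the S genes spread from Ung at -5.70 to Pclaf at 0.70.

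Which T cells of the infiltrate express these genes was asked first by CD62L state. In CD8 cells, 48 of the 50 genes were higher in CD62L-low than in CD62L-high cells, 21 of the 23 S genes and all 25 G2/M genes, with none lower. The summed S genes stood at 2870, 2010, 3660 and 3900 CPM in CD62L-low cells of replicates 1 to 4 and at 941, 773, 1470 and 967 CPM in CD62L-high cells. The summed G2/M genes stood at 2590, 2420, 3710 and 3360 CPM against 621, 948, 1640 and 649 CPM. Neither sum overlapped between the states. Of all 10486 genes tested, 24.1% were higher, and the members' median log2 fold change was 1.65 against 0.01 over all tested genes. Lower summed levels can come from fewer cells with these transcripts or from fewer of them per UMI in each such cell, which sums do not tell apart. The sums also weight cells by their UMIs. Over the lineages, CD62L-low cells with at least 3 G2/M UMIs were 15.9% of cells but held 42% of UMIs.

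Among the S genes of CD8 cells, E2f1 was at 21.6, 12.5, 30.6 and 41.2 CPM in CD62L-low and 4.45, 4.48, 7.95 and 2.89 CPM in CD62L-high cells of replicates 1 to 4. Every CD62L-low library was above every CD62L-high one, and the log2 fold change was 2.27 ± 0.29 (SE; edgeR quasi-likelihood test, Benjamini-Hochberg adjusted p = 5.4e-07). Tk1, the thymidine kinase of S phase, was at 80.7, 70.7, 109 and 129 against 17.1, 10.4, 36 and 23.1 CPM. Its log2 fold change of 2.04 ± 0.31 came with no overlap (edgeR adjusted p = 6.6e-05). Cdc6, at 20 to 67.8 against 0 to 17.5 CPM, and Ccne2, the second E-type cyclin, at 5.07 to 17.8 against 0 to 4.24 CPM, rose by 2.25 ± 0.41 and 2.18 ± 0.39. Both were without a UMI in CD62L-high CD8 cells of replicate 2, where 0 allows up to 4.48 CPM. Mcm7, a helicase subunit, had the smallest S change that passed, 0.95 ± 0.14, and its libraries overlapped (84.6 to 165 against 52.2 to 86.9 CPM). Cdt1 and Ung did not pass, at 0.27 ± 0.13 and 0.67 ± 0.31 (edgeR adjusted p = 0.08 and 0.087).

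The G2/M genes of CD8 cells were led by Aurkb, the kinase of the chromosomal passenger complex, at 51.6, 41.4, 84.2 and 66.8 CPM in CD62L-low and 9.27, 11.9, 22.8 and 7.94 CPM in CD62L-high cells. The states did not overlap, and the log2 fold change was 2.19 ± 0.36 (edgeR adjusted p = 0.00013). Ccnb2 was at 97.7, 73.1, 121 and 128 against 11.5, 37.3, 40.3 and 18.8 CPM, a log2 fold change of 2.06 ± 0.45 (edgeR adjusted p = 0.0015). Cdk1 rose by 1.93 ± 0.40 and Ube2c by 1.85 ± 0.56, both without overlap, and Mki67 by 1.66 ± 0.45 (441, 390, 679 and 564 against 116, 115, 293 and 110 CPM). Kif23, a kinesin of the central spindle, changed least, by 0.62 ± 0.15 (edgeR adjusted p = 0.0015), and was at -0.52 without cells above 3 times their library's median UMI count. Stmn1 rose by 1.53 ± 0.31 and Tuba1b by 1.21 ± 0.19. Taking 1 cell per clonotype, which also leaves fewer cells and drops those without a paired receptor, 15 members were called higher. Markers of other cell types were read beside these results. In CD62L-low CD8 cells of replicate 3 the insulin genes Ins1 and Ins2 were at 189 and 408 CPM. They were at 0.98 to 2.94 and 1.31 to 6.4 CPM in replicates 1, 2 and 4, which overlapped the CD62L-high libraries (0.721 to 2.65 and 0.721 to 5.83 CPM). Without replicate 3 the count of members was again 48. Of the 3 gamma-delta T cell markers Tcrg-C4 was at 53.3 to 80.9 against 1.49 to 7.95 CPM and Trdc differed by -0.02, in cells sorted for the TCR beta chain. Of the 5 myeloid markers Cd68 was called higher, by 1.16, in cells from which barcodes with 3 or more myeloid UMIs had been left out. The B cell marker Cd79b and the endothelial marker Pecam1 were called lower, by -1.18 and -1.39. The part of these transcripts in the result was not tested.

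In conventional CD4 cells the direction was the same. There 47 of 50 members were higher in CD62L-low cells, 22 S and 23 G2/M, with none lower, while 21.6% of all tested genes were higher. The members' median log2 fold change was 1.31 against 0 over all tested genes. The S sum stood at 1860, 1450, 1390 and 1720 CPM in CD62L-low and 635, 418, 750 and 744 CPM in CD62L-high cells. The G2/M sum was 2070, 1250, 935 and 1440 CPM against 547, 61.9, 687 and 556 CPM. The states did not overlap in either sum, and replicate 2 had the lowest sums of the CD62L-high libraries, with 440 cells.

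Tk1 had the largest CD4 change, at 66.9, 49.5, 37.4 and 55.1 CPM against 10.7, 2.69, 17 and 13.5 CPM. The log2 fold change was 2.04 ± 0.30 without overlap (edgeR adjusted p = 3.5e-05). Rrm2 followed at 122, 86.5, 76.1 and 120 against 19.4, 11.3, 34.2 and 31.4 CPM, with 1.93 ± 0.26 (edgeR adjusted p = 2.1e-05). Pclaf rose by 1.80 ± 0.39 and Uhrf1, which keeps DNA methylation through replication, by 1.77 ± 0.27, and Mcm4, a helicase subunit, changed least, by 0.45 ± 0.15. Among G2/M genes Aurkb was at 34, 23.1, 15.9 and 27.4 against 5.53, 1.61, 8.16 and 6.75 CPM, a log2 fold change of 1.99 ± 0.36 without overlap (edgeR adjusted p = 0.00029). Kif11, the kinesin that separates spindle poles, rose by 1.96 ± 0.40, Top2a by 1.82 ± 0.46, Nusap1, a spindle-associated protein, by 1.81 ± 0.39, and Mki67 by 1.69 ± 0.45. Nusap1 had no UMI in CD62L-high cells of replicate 2, where 0 allows up to 1.61 CPM. Ccnb2 changed least of those that passed, by 1.18 ± 0.40, and Stmn1 and Tuba1b rose by 1.11 ± 0.30 and 0.98 ± 0.19.

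The members that did not pass in CD4 cells were Cdt1 at 0.07 ± 0.11, Kif23 at 0.02 ± 0.14 and Ube2c at 1.24 ± 0.51 (edgeR adjusted p = 0.67, 0.92 and 0.065). Ube2c did not overlap between the states, at 91.5 to 205 against 2.69 to 73.6 CPM. Without cells above 3 times their library's median UMI count the CD4 count was 12, with Mcm4 at -0.13 and Stmn1 at -0.05. That cut takes out many of the cells that express the members. CD62L-low CD4 cells with both phase sums had a median of 4.58 times their library's median UMI count. The fall in the count therefore does not tell depth from the loss of these cells. Fitted apart from the other lineages the count was 28, with 1 cell per clonotype 29, and without replicate 1 it was 29. None of 5 acinar markers, which come from digestive cells beside the islets, was called between the CD4 states by edgeR (26.8 to 201 against 21.6 to 323 CPM summed).

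**Figure D2:**
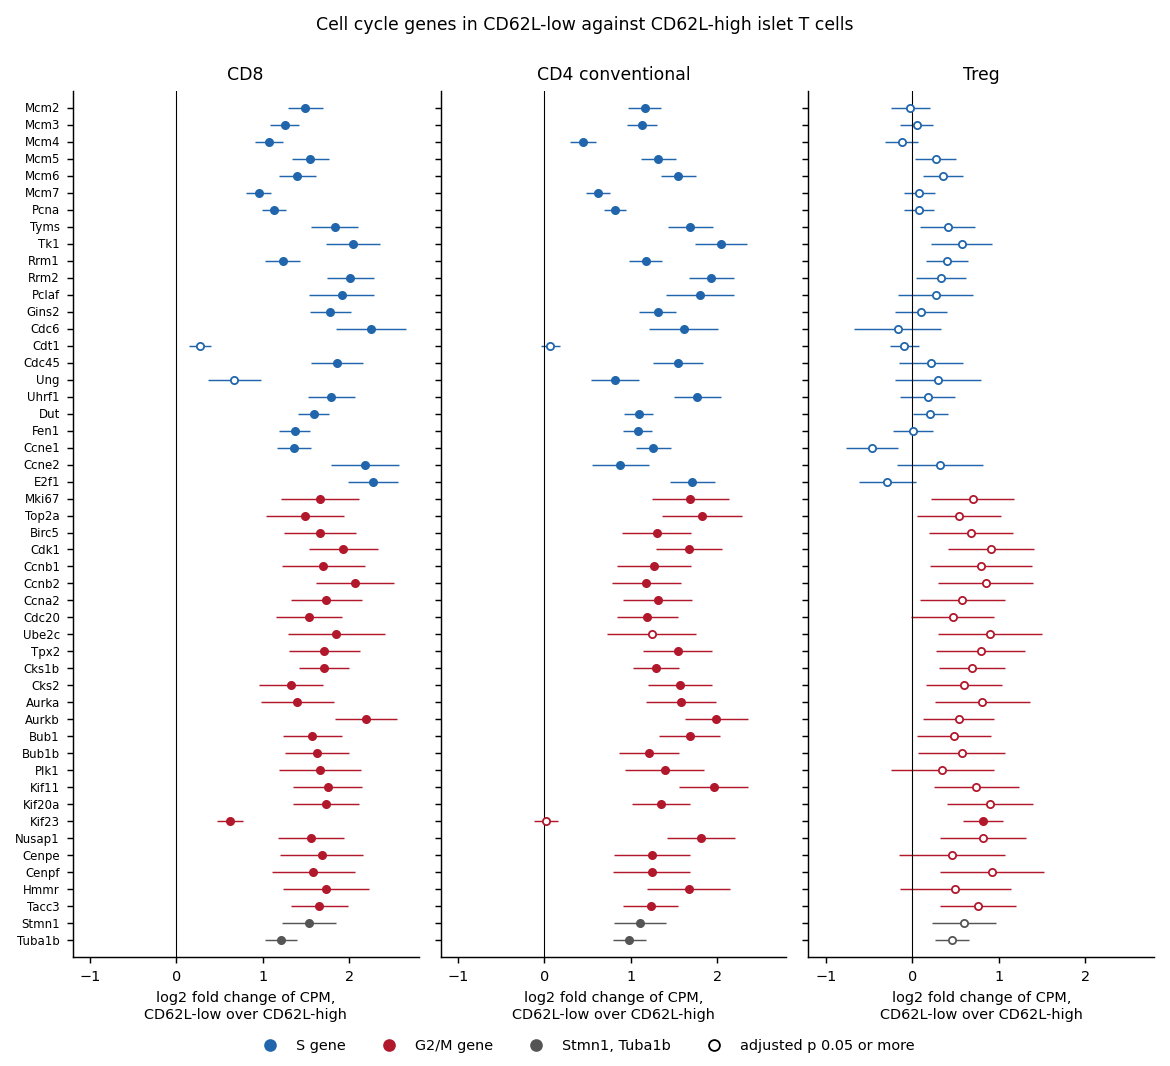
Log2 fold change of CPM, CD62L-low over CD62L-high, for each of the 50 genes in CD8, conventional CD4 and Treg cells, with the SE from edgeR over 4 libraries as the line and open points for genes that did not pass. The filled points number 48 in CD8, 47 in CD4 and 1 in Treg, where Kif23 is the filled one. In Treg Ccne1, E2f1, Cdc6, Mcm4, Cdt1 and Mcm2 lie below 0.

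In Treg few members passed. Of 50 members, 1 was higher in CD62L-low Treg, Kif23, beside 2.61% of all tested genes. Kif23 was at 91.9, 52.5, 62.2 and 67.2 CPM against 37.7, 16.8, 40.2 and 49.2 CPM in CD62L-high Treg. The groups did not overlap, and the log2 fold change was 0.82 ± 0.23 (edgeR adjusted p = 0.035). By edgeR 2 members had an unadjusted p under 0.05, and DESeq2 called 1. Kif23 was not called without replicate 1, 2 or 4 in turn, without the replicate block, without the most deeply sequenced cells (-0.05), with 1 cell per clonotype, or with Foxp3 and Cd8 read from thinned cells. CD62L-high Treg numbered 35 to 77 cells per library, which limits what could be detected. The median log2 fold change was 0.18 over the S genes and 0.70 over the G2/M genes, against 0.01 over all genes. Mki67 stood at 711, 421, 615 and 488 against 416, 294, 201 and 422 CPM, where the lowest CD62L-low library was just below the highest CD62L-high one (0.70 ± 0.48, edgeR adjusted p = 0.49). Stmn1 and Tuba1b did not pass, at 0.60 and 0.46 (edgeR adjusted p = 0.44 and 0.24).

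The difference between Treg and conventional CD4 cells in their CD62L effect was tested itself, with 7 S genes lower in this contrast, beside 2.35% of all tested genes. These were E2f1, Ccne1, Rrm2, Mcm6, Mcm2, Mcm3 and Fen1, the flap nuclease of lagging-strand synthesis. E2f1 was at 15.1, 18, 18.6 and 24.9 CPM in CD62L-low Treg and 16.1, 25.2, 12.6 and 42.2 CPM in CD62L-high Treg, where the states overlapped. In conventional CD4 cells it was at 13.8, 11.1, 11.9 and 14.3 against 3.46, 2.15, 3.09 and 5.57 CPM, where they did not. The CD62L-high Treg values of E2f1, and of Ccne1 below, rest on few UMIs. In CD62L-high Treg of replicates 1 to 4 a count of 0 allows up to 5.38, 12.6, 7.53 and 5.27 CPM. The CD62L effect on E2f1 was -0.29 in Treg and 1.71 in CD4 cells, a difference of -2.0 ± 0.44 (edgeR adjusted p = 0.0085).

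Ccne1 was at 17.3, 15.6, 14.8 and 12.1 CPM in CD62L-low and 23.3, 29.4, 20.1 and 15.8 CPM in CD62L-high Treg, and its difference was -1.73 ± 0.37 (edgeR adjusted p = 0.0079). Rrm2 differed by -1.59 ± 0.40, Mcm6 by -1.19 ± 0.31, Mcm2 by -1.18, Mcm3 by -1.08 and Fen1 by -1.08 ± 0.29. The median difference over the members was -0.84, -1.18 for S and -0.75 for G2/M genes, and no G2/M gene passed. The count of 7 was not stable: it was 0 without replicate 1, 18 without replicate 3 and 1 without replicate 4, 4 without the block, and 2 and 0 in 2 draws when Foxp3 and Cd8 were read from cells thinned to 1500 UMIs. The same test between CD8 and CD4 cells called no member in either direction (median 0.28), where 4.3% of all tested genes were called. By edgeR 3 members had an unadjusted p under 0.05, and DESeq2 called none. The largest difference there was Ccne2, at 1.30 ± 0.54 (edgeR adjusted p = 0.18). With Foxp3 and Cd8 read from cells thinned to 1500 UMIs the median was 0.61 in each of 2 draws, with no member called by edgeR and 4 and 3 at an unadjusted p under 0.05. Mki67 moved from -0.03 to 0.75 and 0.57 there, and Top2a from -0.32 to 0.51 and 0.31. Without the most deeply sequenced cells the median was 1.28 and 3 members were called.

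The same contrasts were read as shares of cells, a readout not tested against the sums. Cells with at least 3 G2/M UMIs made up 19.33%, 15.15%, 39.63% and 33.38% of CD62L-low CD8 cells of replicates 1 to 4 (Wilson 95% intervals from 12.35% to 43.15%). In CD62L-high CD8 cells they made up 3.87%, 2.65%, 9.58% and 2.91%. The mean difference was 22.12 ± 9.48 percentage points (SD, n = 4), positive in 4 of 4 libraries (exact sign-flip permutation test, two-sided, p = 0.13, the smallest that 4 pairs allow). In conventional CD4 cells the shares were 11.01%, 7.75%, 8.55% and 9.42% against 2.39%, 1.59%, 4.25% and 2.94%, a difference of 6.39 ± 1.77 points in 4 of 4 libraries. In Treg they were 24.4%, 23.01%, 24.09% and 18.67% against 11.43%, 14.29%, 8.33% and 19.48%, with a difference of 9.16 ± 7.25 points that was positive in 3 of 4 (exact permutation p = 0.25). Intervals cover counting error only.

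Median depth was 3712 to 4855.5 UMIs in CD62L-low and 3990 to 5359 in CD62L-high CD8 cells, and 3058 to 4011.5 against 3026 to 3928.5 in CD4 cells. After thinning each cell to 1500 UMIs the mean G2/M shares were 17.77% against 2.57% in CD8, 4.52% against 1.19% in CD4 and 13.12% against 6.94% in Treg. The S shares before thinning were 49.76% against 35.23% in CD8, 29.46% against 17.89% in CD4 and 47.61% against 36.72% in Treg. Thinned, they were 26.26% against 6.35%, 9.22% against 3.25% and 19.06% against 14.59%. Of the CD62L-low CD8 cells of replicate 3, the library with high Ins1 and Ins2, 9.32% held at least 3 G2/M UMIs with fewer than 3 S UMIs, against 0.52%, 0.95% and 2.12% in replicates 1, 2 and 4. These cells are counted in the G2/M shares above and numbered 2 to 71 per library. Their median depth by library ran from 1110 to 5467 UMIs, and their median CD11a count from 7 to 481.5. Whether they hold the insulin transcripts was not tested.

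**Figure D3:**
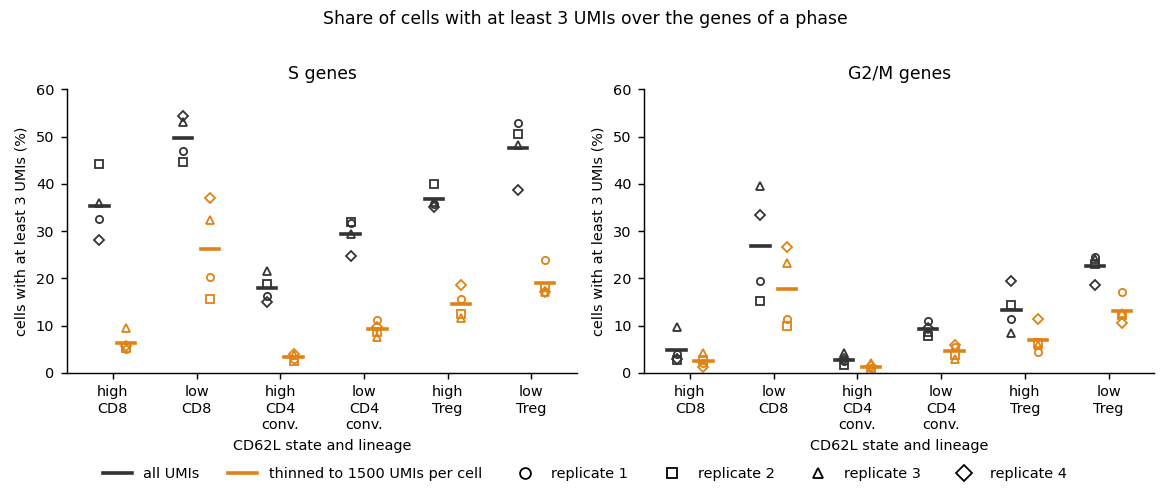
Share of cells (percent) with at least 3 S UMIs and with at least 3 G2/M UMIs in the 6 populations, before thinning (dark) and after thinning to 1500 UMIs (orange), with a point per library and a bar for the mean. The unthinned G2/M share of CD62L-low cells averages 26.87% in CD8, 9.18% in conventional CD4 and 22.54% in Treg.

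Lineages were then compared within the CD62L-low state, with the same CD62L-low CD4 libraries as the reference in both comparisons. In CD8 cells 48 of 50 members were higher than in conventional CD4 cells, 22 S and 24 G2/M, where 22.6% of all tested genes were higher. The median log2 fold change was 1.05, 0.93 for S and 1.12 for G2/M genes, against 0 over all tested genes. Ccne1 was at 30.4, 24.3, 37.5 and 39.1 CPM in CD8 against 16.1, 13, 15.4 and 10.7 CPM in CD4 cells. Every CD8 library was above every CD4 library, by a log2 fold change of 1.30 ± 0.15 (edgeR adjusted p = 5.6e-08). Pclaf was at 393, 258, 445 and 476 against 193, 116, 106 and 170 CPM (1.44 ± 0.34, edgeR adjusted p = 0.0028), also without overlap. Cdc6 rose by 1.38 ± 0.29, and Cdt1, at 0.66 ± 0.10, changed least of the S genes that passed.

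Ccna2, cyclin A2, which acts in S phase and into mitosis, was at 132, 115, 201 and 179 CPM in CD8 against 85.8, 56.7, 41.9 and 70.1 CPM in CD4 cells. The lineages did not overlap, and the log2 fold change was 1.32 ± 0.34 (edgeR adjusted p = 0.0049). Aurkb rose by 1.31 and Plk1, the Polo-like kinase, and Ccnb2 by 1.30 each, while Cks2, a Cdk-binding subunit, changed least, by 0.86 ± 0.31. Stmn1 was higher by 1.32 ± 0.27 and Tuba1b by 0.84 ± 0.19. Ung (0.51 ± 0.24) and Ube2c (0.97 ± 0.47) did not pass (edgeR adjusted p = 0.093 and 0.11). With 1 cell per clonotype the count was 8, and without replicate 4 it was 29. The share of all tested genes called in those runs is not given here. A fall among members therefore cannot be told from fewer calls over all genes. DESeq2 called 22 S but 10 G2/M genes. Tcrg-C4 was at 53.3 to 80.9 CPM in these CD8 and 1.85 to 6.36 CPM in these CD4 cells, and its part was not tested. Ins1 and Ins2 were highest in replicate 3 in both lineages, at 189 and 408 CPM in CD8 and 42.2 and 83.6 CPM in CD4 cells, and the count of members without it was 37.

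Treg had 38 members higher than conventional CD4 cells, 18 S and 18 G2/M with Stmn1 and Tuba1b, where 13.3% of all tested genes were higher. The members' median log2 fold change was 0.90, against -0.02 over all tested genes. Aurkb was at 79.9, 49.7, 69.6 and 65.8 CPM in Treg and 34, 23.1, 15.9 and 27.4 CPM in CD4 cells. The lineages did not overlap, with 1.35 ± 0.28 (edgeR adjusted p = 0.002). Bub1 followed at 1.29 ± 0.29, and Cenpf and Birc5, the passenger protein survivin, at 1.22 and 1.21. Of the S genes, Tk1 and Rrm2 rose by 0.99 ± 0.24 and 0.98 ± 0.23, Cdc45, a helicase activator, by 0.93, Mcm5 by 0.91 ± 0.18 and Pcna, the polymerase clamp, least, by 0.45 ± 0.13. Mki67 (1.15, edgeR adjusted p = 0.053) and Top2a (1.10, edgeR adjusted p = 0.063) were among the 12 that did not pass. The count was 24, 19 and 10 without replicates 1, 2 and 4 in turn, and acinar markers summed to 10.1 to 558 CPM in Treg against 26.8 to 201 CPM in CD4 cells, with none of 5 called by edgeR.

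The Treg count changed when Foxp3 and Cd8 were read from thinned cells. CD62L-low Treg had a median of 3822 to 5363 UMIs against 3058 to 4011.5 in CD4 cells. With Foxp3 and Cd8 read from cells thinned to 1500 UMIs, 400 and 420 Treg remained in 2 random draws in place of 769. Such runs also left out cells under 1500 UMIs and called CD8 cells from any thinned Cd8 UMI, not from at least 2. Their counts therefore mix depth with a changed set of cells. In both draws 0 members were higher by edgeR (3 and 0 at an unadjusted p under 0.05), with median log2 differences of 0.29 and 0.25 and Pcna at -0.17 in each. These draws also moved Foxp3-expressing cells into the CD4 group. With gate and phase sums both thinned, the G2/M share was 8.81% in Treg against 5.86% in CD4 cells, higher in 3 of 4 libraries. In the same draws the CD8 count against CD4 was 36 and 32, and the CD62L counts were 48 and 48 in CD8 and 47 and 43 in CD4 cells. The CD8 over CD4 change of every member was smaller in both draws, with Mki67 at 0.82 and 0.77 in place of 1.12. Most CD62L changes in CD4 cells were also smaller, with Tk1 at 1.63 and 1.54 in place of 2.04. Those of Kif23 and Cdt1 were larger in both draws.

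Clone size was read from cells of 1 library that shared both receptor chains. CD62L-low cells of clones seen in 2 to 4, 5 to 9 and 10 or more cells were each compared with cells whose receptor was seen once, so that the 3 comparisons share those cells. In CD8 cells more members passed in larger clones. The G2/M sum was 1200, 874, 1640 and 1140 CPM in single-receptor cells of replicates 1 to 4 and 4550, 3630, 4280 and 4490 CPM in clones of 10 or more. The S sum was 1560, 1190, 1550 and 1990 against 4640, 2840, 4630 and 4990 CPM. Neither sum overlapped between these classes. The sums of large clones rest on few clones, since 24 CD8 clones over the 4 libraries had at least 10 CD62L-low cells. In replicate 1 such a clone held 26 cells with a median of 25001 UMIs, and 88.5% of its cells held at least 3 G2/M UMIs. The part of a single clone in a sum was not computed. In clones of 10 or more 47 of 50 members were higher, 21 S and 24 G2/M, where 18.5% of all tested genes were higher, and the median log2 fold change was 1.55 against 0 over all tested genes.

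Ccnb2 was at 184, 113, 144 and 173 CPM in CD8 clones of 10 or more and 35.7, 17, 57.7 and 28.6 CPM in single-receptor cells. It rose by 2.05 ± 0.25 without overlap (edgeR adjusted p = 5.6e-06). Tk1 led the S genes at 150, 106, 140 and 164 against 30.6, 29.3, 36.1 and 69.8 CPM, with 1.68 ± 0.25 (edgeR adjusted p = 6.3e-05) and no overlap. Cdk1 rose by 1.94 ± 0.42, Cenpe, a kinetochore motor, by 1.93, and Bub1 by 1.89 ± 0.29. Pclaf, Rrm2 and Cdc6 rose by 1.67 ± 0.26, 1.61 and 1.57, and Stmn1 and Tuba1b by 1.49 ± 0.18 and 1.46. Mcm4 (0.92) and Kif20a, a mitotic kinesin (1.40), changed least among those called in each phase. Cdt1, Ung and Cdc20, the activator of the anaphase-promoting complex, did not pass, at 0.47, 0.65 and 1.57 (edgeR adjusted p = 0.1, 0.32 and 0.051).

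CD8 clones of 5 to 9 cells had 41 members higher, where 11.9% of all tested genes were, 24 of 25 G2/M and 15 of 23 S genes. Cenpe was at 55.3, 172, 251 and 93.9 CPM against 24.5, 23.7, 32.5 and 12.5 CPM, without overlap, and rose by 2.46 ± 0.43 (edgeR adjusted p = 0.0021). Ccnb2 rose by 2.40 ± 0.26 and Bub1 by 2.28, Pclaf by 1.76 and Tk1 by 1.62. The members that did not pass were Mcm3, Cdc6, Cdt1, Ung, Uhrf1, Ccne1, Ccne2, E2f1 and Cdc20. CD8 clones of 2 to 4 cells had 6 members higher, beside 2.49% of all tested genes: Bub1 by 1.72 ± 0.36, Hmmr by 1.22, Birc5 by 1.16, Ccnb2 by 1.09, Stmn1 by 1.05 ± 0.19 and Tuba1b by 0.88. That count of 6 was 1 without replicate 1 and 10 without replicate 3, and the count of 41 was 26 without replicate 2. Without cells above 3 times the library median in UMIs the 3 CD8 counts were 1, 0 and 16. That cut takes out many cells with both phase sums. Tcrg-C4 was called higher in each CD8 class, at 64.2 to 136 CPM in clones of 10 or more and 5.41 to 25.6 CPM in single-receptor cells, and its part was not tested.

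In conventional CD4 clones most members that passed were S genes, but both phase sums were higher on average. The mean G2/M sum was 998 ± 536 CPM in single-receptor cells (SD, n = 4). It was 2030 ± 1430, 2100 ± 643 and 2170 ± 707 CPM from clones of 2 to 4 cells to those of 10 or more. The mean S sum was 1200 ± 280 CPM against 1980 ± 399, 2450 ± 277 and 2250 ± 345 CPM. The counts that passed therefore do not show that G2/M genes rose less. In clones of 10 or more 26 members were higher, 20 S and 4 G2/M with Stmn1 and Tuba1b, where 13.3% of all tested genes were. The median log2 fold change was 0.85 over the S genes and 1.15 over the G2/M genes, against 0.01 over all tested genes. Mcm6 was at 300, 277, 337 and 324 CPM in these clones and 150, 112, 127 and 123 CPM in single-receptor cells, without overlap, and rose by 1.20 ± 0.10 (edgeR adjusted p = 9.8e-09). The G2/M genes that passed were Ccnb2 (1.30 ± 0.38), Cdk1 (1.24), Aurkb (1.15) and Cks1b (1.04 ± 0.24). Ccne2, Pclaf and Rrm2 rose by 1.13, 1.06 and 1.02, Pcna least, by 0.66 ± 0.16, and Stmn1 and Tuba1b by 0.65 and 0.77. This count was 40 without replicate 1 and 13, 16 and 14 without replicates 2, 3 and 4.

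In CD4 clones of 5 to 9 cells 22 members were higher, 19 of them S genes, where 7.74% of all tested genes were. Rrm2 rose by 1.57 ± 0.26, Cdc6 by 1.46, Pclaf by 1.40, Gins2, a helicase cofactor, by 1.24, Pcna by 0.63 and, as the 1 G2/M gene, Cks1b by 1.07. In clones of 2 to 4 cells 13 were higher, 12 of them S genes, where 3.82% of all tested genes were. Mcm6 was at 254, 252, 226 and 225 CPM there, above all single-receptor libraries (0.85 ± 0.11, edgeR adjusted p = 3e-05). Cdc6 rose by 1.15, Cdc45 by 0.99, Ccne1 by 0.83 and Pcna by 0.56, and Cks1b was again the 1 G2/M gene, at 0.92. With no filter on low counts the CD4 counts were 44, 44 and 48 in the order of clone size. Without the most deeply sequenced cells, many of which held both phase sums, they were 2, 3 and 4. The CD4 counts by size moved by over 1.5 times when replicate 2 was left out of each (5, 13 and 13), as did those of 2 to 4 without replicate 3 (7) and of 5 to 9 without replicate 4 (13).

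**Figure D4:**
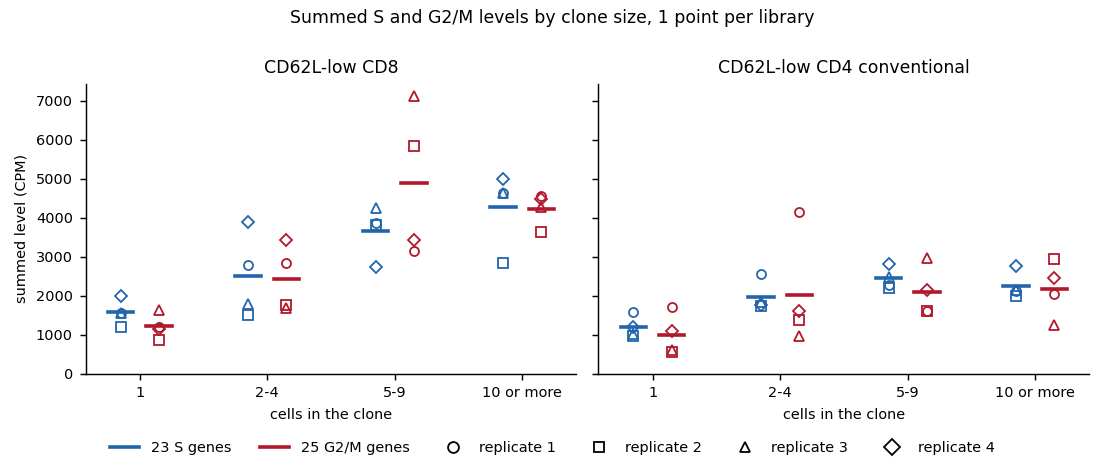
Summed CPM of the S genes and of the G2/M genes in CD62L-low CD8 and conventional CD4 cells by clone size, with a point per library and a bar for the mean. In CD8 cells all 4 libraries of clones of 10 or more lie above the single-receptor libraries in both sums.

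Expanded Treg (2 or more cells) were compared with single-receptor Treg in 3 libraries, since replicate 3 held under 20 expanded Treg. Of 49 members tested 0 were called by edgeR, beside 0.0804% of all tested genes called higher, with 1 at an unadjusted p under 0.05 and 0 by DESeq2. Their median log2 fold change was 0.31. Without replicate 4 the count was 9. The summed acinar markers ran from 3.08 to 50.9 CPM in expanded and from 14.6 to 1460 CPM in single-receptor Treg, and their part in the result was not tested.

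The G2/M share of CD8 cells averaged 7.58%, 22.69%, 37.33% and 50.76% from single-receptor cells to clones of 10 or more, and that of CD4 cells 6.08%, 13.93%, 15.97% and 17.77%. Thinned to 1500 UMIs, clones of 10 or more were at 32.77% against 4.51% in CD8 and 8.89% against 3.01% in CD4 cells. In each lineage the largest clones were above single-receptor cells in 4 of 4 libraries (exact permutation p = 0.13). In Treg the share was 32.4% against 17.57%, higher in 2 of 3 libraries (exact permutation p = 0.5). All 24 CD8 clones of at least 10 CD62L-low cells held a cell with at least 3 G2/M UMIs, and the share of such cells ran from 8.3% to 88.5% with a median of 51.8%. Of 33 such CD4 clones 31 held one, with shares from 0% to 80% and a median of 18.2%. At the mean shares above, a clone of at least 10 cells is likely to hold such a cell. The counts of clones therefore add little to the shares. The largest clonotype supplied 33.3%, 20%, 31.3% and 26% of the CD62L-low CD8 cells with at least 3 G2/M UMIs in replicates 1 to 4. In CD4 cells the largest clonotype supplied 5.9% to 7.6%, and in Treg 5.6% to 10.8%.

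Havcr2, the checkpoint receptor TIM-3 of terminally differentiated CD8 cells, and Il21, a cytokine of helper CD4 cells, split the CD62L-low cells once more. CD8 cells with a Havcr2 UMI had 46 members higher than those without, in the 3 libraries with at least 20 such cells, where 6.83% of all tested genes were higher. The members' median was 1.04 against -0.02 over all tested genes. Plk1 was at 188, 157 and 90 CPM in replicates 2 to 4 against 50.5, 43.7, 46.5 and 59.4 CPM in all 4 libraries without, and rose by 1.48 ± 0.24 (edgeR adjusted p = 0.0019). Ccne2, at 9.88, 29.9 and 24.5 against 11.6, 4.49, 10.7 and 14.6 CPM, overlapped between the groups and rose by 1.14 ± 0.29. Cells with a Havcr2 UMI had a median of 7664, 13592 and 7441 UMIs against 4792, 3152 and 3508.5. With Havcr2 read from cells thinned to 1500 UMIs, 0 and 3 members were called in 2 draws (8 and 13 at an unadjusted p under 0.05). At 2500 UMIs 0 were called (3 at an unadjusted p under 0.05). Only 58 to 81 positive cells in 2 libraries remained in these runs, and the medians were 0.15, 0.12 and 0.

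CD4 cells with an Il21 UMI had 41 members higher, where 14.2% of all tested genes were, with a median of 1.06 against -0.01. Hmmr was at 72.1, 57.4, 29.4 and 48.4 CPM against 28.4, 16, 10.9 and 16.8 CPM and rose by 1.48 ± 0.13 (edgeR adjusted p = 2.5e-07). Cdc45 was at 26.2, 23, 20.5 and 31.9 against 18.7, 12.6, 7.55 and 9.35 CPM and rose by 1.07 ± 0.20 (edgeR adjusted p = 0.001). Neither gene overlapped between the groups. Cells with an Il21 UMI had a median of 4402 to 6181 UMIs against 2861 to 3809.5. With Il21 read from cells thinned to 1500 UMIs, 9 members were higher and 2 lower in 1 draw and none in a second. At 2500 UMIs 0 were higher and 7 lower, with a median of -0.36. The thinned G2/M share was 4.6% with and 4.51% without Il21.

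**Figure D5:**
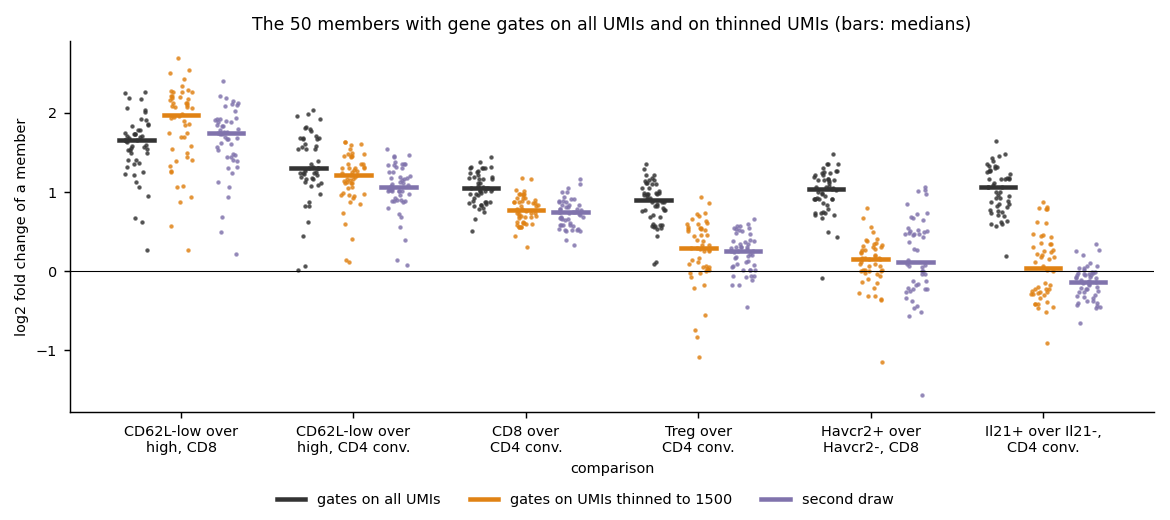
Log2 fold change of each of the 50 genes (points) and their median (bar) in 6 comparisons, with the defining transcripts read from all UMIs of a cell or from cells thinned to 1500 UMIs in 2 draws. The median goes from 1.65 to 1.98 and 1.75 for CD62L in CD8 cells, from 0.90 to 0.29 and 0.25 for Treg against CD4, from 1.04 to 0.15 and 0.12 for Havcr2, and from 1.06 to 0.05 and -0.13 for Il21. For CD8 against CD4 every gene is lower in both draws, and for CD62L in CD4 cells most are.

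Beside the members, 36 genes that control the cycle (D-type cyclins, Cdk inhibitors, pocket proteins, E2F and MuvB factors and others) were counted as a list. In CD62L-low CD8 cells 23 of 35 tested were higher and 9 lower. Cdkn2a, an inhibitor that arrests the cycle through Rb and p53, had the largest rise, 3.65 ± 0.66, from a mean of 0.795 to 12.1 CPM. The lower mean is under the 1.11 to 4.48 CPM that a count of 0 allows in CD62L-high CD8 cells, so the size of this rise is uncertain. Klf2, a quiescence factor, had the largest drop among genes that passed in CD8 cells, -1.42 ± 0.18. Of all tested genes 24.1% were higher and 19.8% lower there. In CD4 cells 19 of the same 35 were higher and 5 lower, where 21.6% and 18.7% of all tested genes were. Cdkn1a, the p21 inhibitor, rose by 2.37 ± 0.38, from a mean of 2.92 to 17.4 CPM, and Klf2 was lower by -1.10. In Treg 1 was higher, Fzr1, an activator of the anaphase-promoting complex, by 0.72, and 1 lower, Klf2 by -1.56, beside 2.61% and 2.47% of all genes. The list's counts were 21 higher and 8 lower in CD8 against CD4 cells (all genes 22.6% and 21.1%), with Cdkn1c at -1.40 and E2f7, a repressor E2F, at 1.5. In Treg against CD4 cells they were 12 and 3 (all genes 13.3% and 12.4%), with Cdkn1a at 1.60 and Klf2 at -1.30. Each of these counts is out of the same 35. The lower counts in CD4 cells and in both lineage comparisons lie near or under the share of all genes. They are therefore no trait of the list. In the contrast of CD62L effects Wee1, the kinase that restrains Cdk1, differed by -1.52 and Cdk6 by -1.15 between Treg and CD4 cells, and Ccnd2, cyclin D2, by -0.57 between CD8 and CD4 cells.

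By clone size, the list in CD8 cells had 3, 12 and 20 higher and 1, 6 and 6 lower genes from 2 to 4 cells to 10 or more. Of all tested genes 2.49%, 11.9% and 18.5% were higher and 3.32%, 11.4% and 19.7% lower. Cdkn2c, a Cdk4 and Cdk6 inhibitor, had the largest called rise in the first and second classes, 1.81 and 2.26, and Cdkn1a in the third, 2.29. Ccnd2 had the largest called drop in the first pair, -0.72 and -1.13, and Klf2 in the third, -1.45. In CD4 cells the counts were 4, 12 and 9 higher and 2, 3 and 5 lower, where 3.82%, 7.74% and 13.3% of all tested genes were higher and 3.95%, 7.88% and 12.6% lower. There E2f8, a repressor E2F, rose by 1.21 in clones of 2 to 4, and Cdkn2a by 2.07 and 2.46 in the larger classes, where Klf2 was lower by -1.59 and -2.12. In expanded Treg 0 of 30 were called by edgeR. With Havcr2, 12 were higher and 2 lower (all genes 6.83% and 7.16%), led by Foxm1, the mitotic transcription factor, at 1.07. With Il21, 15 were higher and 6 lower (all genes 14.2% and 14.5%), with Klf2 at -2.01.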

How the data were processed

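The authors deposited raw UMI counts of genes and antibodies by cell barcode, written by Cell Ranger 4.0.0 per the file headers, and receptor contig tables. The submitters' processing notes name mm10 and Seurat without a role. Barcodes were kept with at least 500 UMIs, 300 genes, at most 8% mitochondrial UMIs, at least 1 Cd3 UMI and at most 1 TRB chain. Barcodes with at least 3 UMIs of B cell or of myeloid markers (196 to 363 per library) were left out, and no doublet caller was run. A clone is the kept cells of a library with identical TRA and TRB CDR3 nucleotides.

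UMIs were summed per population and library (at least 20 cells) and tested over all genes past filterByExpr by edgeR 4.0.16 (R 4.3.3) with TMM scaling, the robust quasi-likelihood test and Benjamini-Hochberg adjustment, called at 0.05. Summed libraries held 238195 to 7548740 UMIs in the CD62L and lineage fit. The library was a block because the compared populations come from the same library. Same-library residuals correlated at 0.026 to 0.421 in the CD62L and lineage fit, and at -0.103 to 0.362 over the clone size comparisons. Shares were tested by exact sign-flip permutation (scipy 1.17.1), and thinning drew UMIs without replacement. CPM scale a summed count by the total UMIs of its population and library. DESeq2 1.42.0 and the other alternatives are given in the closing section. A UMI count of 0 allows 3 counts of the total.

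Named per comparison were the 4 members of each phase with the largest called change, the smallest called change, Stmn1, Tuba1b and, where at most 10, those not called; for Havcr2 and Il21 only the first of each phase is printed, and some others were named after their values were seen. The members and lists were chosen with earlier results of these data known.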

Additional observations from a re-analysis of the deposited data

Results flagged for a closer look

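Of 152 groups of 4 libraries examined, 4 held a library far from the other 3 by Dixon's test at the 95% level, where chance gives about 1 in 20. In CD62L-low CD8 cells whose receptor was seen once, 43.35% of cells of replicate 2 held at least 3 S UMIs, above 37.27% to 37.78% in the others. In CD62L-low CD8 clones of 2 to 4 cells, 31.58% of the 38 cells of replicate 4 held at least 3 G2/M UMIs, above 18.87% to 20.69%. In CD62L-high conventional CD4 cells Ube2c was at 2.69 CPM in replicate 2, below 66.9 to 73.6 CPM, and Kif23 at 40.6 CPM in replicate 1, above 29 to 30.8 CPM.

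For 7 S genes the CD62L effect differed between Treg and conventional CD4 cells when the difference itself was tested by edgeR. The log2 differences, Treg minus CD4, were -1.18 for Mcm2, -1.08 for Mcm3, -1.19 for Mcm6, -1.59 for Rrm2, -1.08 for Fen1, -1.73 for Ccne1 and -2.0 for E2f1. None of the 7 was called without replicate 1, where the count was 0.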

How the results depend on the processing

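Values below are members called higher (lower for the difference of the CD62L effect between Treg and CD4 cells), out of 50 unless stated. The shares of all tested genes called in the same runs are not given, here or with the alternatives above. A changed count therefore does not tell a change among members from one over all genes. Of the main counts and shares under all alternatives, 528 were labelled the same, 22 stronger, 54 weaker and 8 reversed. A count was the same within a factor of 1.5 of its main value, and reversed when the members' median turned sign. A share difference was the same whenever its sign held, so it could not be labelled weaker or stronger. Of values of single genes these numbers were 1775, 45, 315 and 35. There the same meant an unchanged direction and an unchanged side of the 0.05 threshold.

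Leaving out each replicate in turn, the counts ran from 29 to 46 for CD62L in CD4 cells, 0 to 1 in Treg, 29 to 45 for CD8 against CD4, 10 to 26 for Treg against CD4 and 0 to 18 for the Treg difference. They ran from 1 to 10 and 26 to 43 in CD8 clones of 2 to 4 and 5 to 9, from 5 to 14, 13 to 29 and 13 to 40 in CD4 clones by size, and from 0 to 9 in expanded Treg. Kif23 in CD4 cells ran from -0.04 to 0.09 (-0.01 without replicate 1), and in expanded Treg Stmn1 ran from -0.05 to 0.92 and Tuba1b from -0.42 to 0.47.

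Without cells above 3 times the library median UMIs, which takes out many cells with both phase sums, the counts were 12 for CD62L in CD4 cells, 0 in Treg, 14 for Treg against CD4, 3 for the CD8 difference, 0 for the Treg difference (median 0.4), 1, 0 and 16 in CD8 clones, 2, 3 and 4 in CD4 clones, 2 in expanded Treg, 1 for Havcr2 and 3 for Il21 (median -0.18). The S share in CD8 clones of 5 to 9 was then lower by -5.11 percentage points. Single genes that turned were, for CD62L, Kif23 (-0.52), Cdt1 (-0.24) and Ung (-0.37) in CD8 cells, Mcm4 (-0.13), Stmn1 (-0.05), Cdt1 (-0.3) and Kif23 (-1.1) in CD4 cells, and Kif23 (-0.05) in Treg. For the Treg difference they were Rrm2 (0.76), Fen1 (0.42), Stmn1 (1.24) and Tuba1b (0.14). In clones they were Tuba1b (-0.07), Mcm3 (-0.65), Cdt1 (-0.91) and Uhrf1 (-0.74) in CD8 clones of 5 to 9, Cdt1 (-0.69) in those of 10 or more, Tuba1b (-0.03) in CD4 clones of 2 to 4 and Stmn1 (-0.2) in those of 10 or more.

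Taking 1 cell per clonotype leaves fewer cells and drops every cell without a paired receptor. The counts were then 15 for CD62L in CD8, 29 in CD4 and 0 in Treg, and 8 for CD8 against CD4. They were 0 for both differences (median -0.02 for CD8), 16 in CD8 and 33 in CD4 clones of 2 to 4 and 6 in CD4 clones of 5 to 9. Cdt1 was then at -0.07 in CD8 and -0.03 in CD4 cells, and Tuba1b at -0.09 in the CD8 difference. With paired receptors only, the counts were 23 for Treg against CD4 and 0 for the Treg difference, and Cdt1 in CD4 cells was at -0.03. Separate fits gave 28 in CD4 cells and 3 in Treg.

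Without the replicate block the counts were 0 for CD62L in Treg, 4 for the Treg difference and 6 in CD4 clones of 2 to 4, and no other count moved by over 1.5 times. With no low-count filter they were 23 for Treg against CD4, 2 for the Treg difference, 28 in CD8 clones of 2 to 4, 44, 44 and 48 in CD4 clones and 2 in expanded Treg. DESeq2 gave 16 for the Treg difference and 12 in CD8 clones of 2 to 4. That last count was 10 when a CD11a count of at least 20 was required. With B and myeloid barcodes kept, the counts were 15 in CD8 and 8 in CD4 clones of 2 to 4 and 4 in expanded Treg. With clonotypes from TRB alone they were 12 in CD8 clones of 2 to 4, 8 and 41 in CD4 clones of 5 to 9 and of 10 or more, and 1 in expanded Treg.

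With lineages read from UMIs thinned to 1500, in 2 draws, the counts were 0 and 0 for CD62L in Treg, 0 and 0 for Treg against CD4 and 2 and 0 for the Treg difference. Against CD4, Treg then had Pcna at -0.17 and -0.17 and Tuba1b at -0.02 and -0.06. With Havcr2 thinned the counts were 0 and 3 at 1500 UMIs and 0 at 2500, and Ccne2 was at -0.47 in the second draw. With Il21 thinned they were 9 and 0 at 1500 and 0 at 2500. Cdc45 was at -0.39 at 2500 UMIs and -0.01 in the second draw, and Hmmr at -0.24 at 2500. The thinned gates for lineage, the gates at 2500 UMIs and the second draws were added after seeing the data. Except where construction shows it, the cause of these changes was not tested.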
